A study of Mus musculus with 30 samples.

Results

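The smooth muscle contractile genes are 10 genes of the contractile apparatus of visceral muscle, taken by gene symbol from the gene count table: Acta2, Actg2, Myh11, Des, Tagln, Cnn1, Mylk, Casq2, Flna and Synm. All 10 were among the 46078 genes counted and among the 16261 genes that passed the filter on low counts. They were followed in 30 libraries of mouse colon, each from 1 mouse, in 6 groups of 5. The tissue was the epithelial layer, scraped off the colon of male and female wild-type C57BL/6J mice that were 5 to 10 weeks old at the start. Treated mice received 1 injection of azoxymethane (AOM), a colon carcinogen, at 10 mg/kg, followed by 3 cycles of 2.5% dextran sulfate sodium (DSS), an irritant that causes colitis, in the drinking water, and were killed at 9 or 15 weeks. Vehicle mice were injected with saline and were killed at 9 weeks. They served as controls for both time points, so that treatment and time cannot be told apart at 15 weeks.

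Smooth muscle shortens when myosin filaments pull on actin filaments. Calcium entering the cell activates myosin light chain kinase, which phosphorylates the myosin light chain, and the actin filaments are anchored in dense bodies that a lattice of desmin links together. In the colon wall such cells form the muscularis mucosae directly beneath the mucosa and the thicker muscularis propria outside it, and scattered pericytes and myofibroblasts of the mucosa express some of the same genes. Epithelial cells contain nonmuscle forms of myosin and actin. Acta2, Actg2, Myh11, Des and Tagln had counts in every library, while Cnn1, Casq2 and Synm had none in 2 libraries each. The labelled tissue held its defining markers. Epcam, an epithelial adhesion molecule, lay between 1312 and 1862 counts per 1000000 (CPM) in 29 libraries and at 1478 CPM in the remaining library, male vehicle replicate 1. CPM here are counts divided by the library's total over the tested genes, scaled with edgeR's TMM factors, and they are used to compare libraries. Transcripts per 1000000 (TPM), the authors' values per transcript length, are used to compare genes.

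The libraries held 9265804 to 30806392 counts. Mitochondrial transcripts made up 51.8 to 76.3% of TPM, which lowers the TPM of every other gene, and the TMM factors lay between 0.832 and 1.10. The labels named no batch. In bulk tissue, fewer cells of a type and less RNA per cell cannot be told apart.

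The actins of smooth muscle come in a pair of related genes, and reads from them could be confused if they shared long stretches. Acta2, the alpha actin of vascular and many other smooth muscles, lies at chr19:34241090-34255336 on the minus strand of GRCm38, and Actg2, the gamma actin of enteric muscle, at chr6:83512905-83536265, also on the minus strand. The last 90 coding bases of each, from the GENCODE transcripts, are shown with the 16 bases that differ in capitals.
Acta2: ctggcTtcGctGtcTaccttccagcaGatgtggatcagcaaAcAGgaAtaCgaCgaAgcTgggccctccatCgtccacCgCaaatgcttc
Actg2: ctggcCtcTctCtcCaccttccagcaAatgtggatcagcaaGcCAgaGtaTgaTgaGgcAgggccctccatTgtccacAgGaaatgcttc
Over the last 1100 coding bases the pair was 84.4% identical, and the longest run without a difference was 29 bases, shorter than the 51 bases of a read. No 51-base window of the Actg2 transcript was found in another gene. For Acta2, 0.302% of such windows were shared with 1 or more of 6 genes, the most with the pseudogene Gm8399, and for Myh11 0.375% with 1 or more of 2 genes, the most with the nonmuscle myosin Myh9. For the other 7 genes no window was shared.

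Promoter sequence from RefSeq (GRCm38.p6) was in the table for 7 of the 10 genes. Actg2, Myh11 and Tagln had no entry. Serum response factor, which controls many muscle genes, binds the CArG box. Searched on both strands of the 250 bases before the start site with every core letter A or T, the CArG box was in 1.47% of 32851 windows and in none of the 7. With 1 C or G allowed in the core it was in 8.59% of windows and in 2 of the 7, Acta2 and Synm. Acta2 held 2 such matches, at bases -84 to -75 and -34 to -25 from the start site, as did 0.670% of windows with 2 or more. The matches are in capitals below, because these are the promoters that carry them. They are descriptions of letters and say nothing of binding.
Acta2, chr19:34255378-34255487, minus strand: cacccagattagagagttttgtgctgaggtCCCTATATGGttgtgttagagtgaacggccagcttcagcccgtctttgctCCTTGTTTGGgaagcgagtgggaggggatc
Synm, chr7:67759952-67759992, minus strand: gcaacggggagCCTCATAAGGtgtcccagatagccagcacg
The Synm match lay at bases -239 to -230.

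Male vehicle replicate 1 stood apart from the other 29 libraries in all 10 genes. The 10 genes took 0.727% of its counts, against 0.00542 to 0.0353% elsewhere, and their summed TPM was 2153, against 2.57 to 83.1 with a median of 13.4. Expressed as a percentage of that library's CPM, the median of the 10 genes in the others ran from 0.0309 to 4.42%. The second highest library was female AOM/DSS 9 weeks replicate 3, at 4.42%, which held the highest value of the 29 for 7 of the genes. It was followed by male vehicle replicate 5 at 2.30%, male AOM/DSS 15 weeks replicate 2 at 1.59% and male AOM/DSS 9 weeks replicate 1 at 1.54%. The lowest were male AOM/DSS 15 weeks replicates 4 and 3, at 0.0309 and 0.0407%, female AOM/DSS 15 weeks replicate 1 at 0.0665% and female vehicle replicate 3 at 0.0708%. High and low libraries therefore occurred in several groups, and the highest and the fourth lowest were both vehicle libraries. The results below are given with all 30 libraries and without male vehicle replicate 1, a step chosen after its values were seen.

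**Figure D1:**
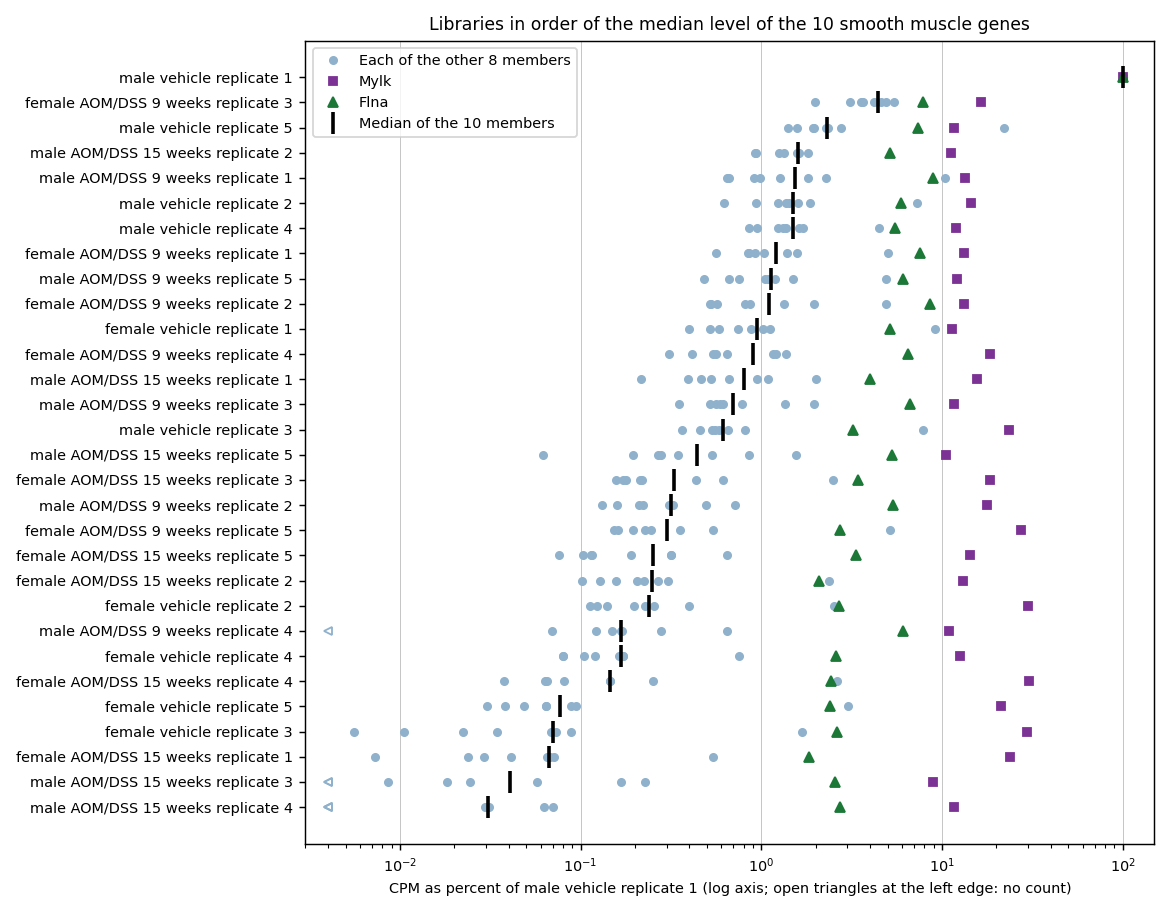
Each row is a library and each point a gene, with its CPM as a percentage of male vehicle replicate 1 on a log axis. Black ticks mark the median of the 10 genes, which runs from 0.0309 to 4.42% in the other 29 libraries, while Mylk (squares) stays at 8.90% or more and Flna (triangles) at 1.84% or more.

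Myh11 encodes the smooth muscle myosin heavy chain, the motor of the thick filament, and lies at chr16:14194527-14291408. It had the highest CPM of the 10 in male vehicle replicate 1, 1400.5 CPM from 43046 counts. In the female vehicle libraries it was 12.3, 1.58, 0.481, 1.46 and 0.533 CPM in replicates 1 to 5. In male vehicle replicates 2 to 5 it was 19.1, 8.12, 12.1 and 32.7 CPM. The female vehicle libraries were thus low except replicate 1, which fell inside the range of the males. In the AOM/DSS 9 weeks libraries Myh11 was 11.8, 12.1, 43.5, 7.53 and 2.26 CPM in females and 13.8, 3.10, 8.65, 2.36 and 15.2 CPM in males. At 15 weeks it was 0.335, 2.21, 2.49, 0.892 and 1.59 CPM in females and 9.31, 13.0, 0.121, 0.413 and 3.90 CPM in males. Males at 15 weeks split widely, with replicates 1 and 2 near the level at 9 weeks and replicates 3 and 4 near the bottom of the series.

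Mylk, at chr16:34745210-35002420, encodes the myosin light chain kinase that switches the motor on, and one of its long forms is also expressed in epithelia. It behaved differently. Male vehicle replicate 1 was again highest, at 410.4 CPM, but the other 29 libraries all lay between 36.5 and 124 CPM, a 3.39-fold range, against a 361-fold range for Myh11. Females with vehicle had 46.5, 123, 121.8, 51.5 and 87.0 CPM, and male vehicle replicates 2 to 5 had 59.7, 95.9, 49.1 and 47.7 CPM. The highest of the 29 was female AOM/DSS 15 weeks replicate 4, a library low in Myh11. Per length, Mylk had the highest median of the 10 over the other 29 libraries, 4.29 TPM, and was the eighth in male vehicle replicate 1, with 42.5 TPM. It did not lead in every library. In female AOM/DSS 9 weeks replicate 3 Tagln was 23.8 TPM and Mylk 6.11 TPM.

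The thin filament genes followed Myh11. Acta2 was 1082 CPM in male vehicle replicate 1 and 0.758 to 39.8 CPM elsewhere, with a median of 8.83 CPM. For Actg2 the value was 661 CPM, against 0.0479 to 23.5 CPM, with a median of 2.29 CPM. Tagln, which encodes the actin-binding protein transgelin (SM22 alpha), reached 1129 CPM, against 0.344 to 52.1 CPM. Cnn1, which encodes calponin, an inhibitor of the myosin ATPase bound to actin, reached 351 CPM, against at most 18.96 CPM. Cnn1 had no count in male AOM/DSS 15 weeks replicates 3 and 4, where 3 counts, the limit that a count of 0 allows, correspond to 0.121 and 0.207 CPM. That limit covers counting error only. Per length, Tagln (586 TPM), Acta2 (511 TPM) and Actg2 (416 TPM) led the 10 genes in male vehicle replicate 1.

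Actg2 was the gene with which the sexes separated among vehicle libraries. It was 2.64, 0.811, 0.481, 0.530 and 0.320 CPM in females and 661, 6.17, 3.67, 9.05 and 10.4 CPM in males. Every male vehicle library was above every female one, also without replicate 1, whereas the ranges of the other 9 genes overlapped. Over all tested genes, 0.996% had every male vehicle library higher with all 10 libraries, and 1.26% without male vehicle replicate 1. None of the 10 genes separated the groups at 9 weeks against vehicle, at 15 weeks against vehicle, between those times, or between the sexes at 9 or 15 weeks, where 1.09, 0.240, 0.0123, 1.29 and 2.43% of tested genes did.

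The ratio of Acta2 to Actg2 varied among libraries. In TPM it was 1.23 in male vehicle replicate 1 and 1.24 in female AOM/DSS 9 weeks replicate 3. In the 24 libraries other than male vehicle replicate 1 that had at least 10 counts of each gene, the ratio ran from 0.953 to 11.9, with a median of 2.72, and was above 1.23 in 23. The highest ratios, 7.45 and 11.9, were in male AOM/DSS 9 weeks replicates 2 and 4, from 20 and 15 counts of Actg2. The lowest, 0.953, was in male AOM/DSS 15 weeks replicate 2.

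The cytoskeletal lattice was represented by Des, the muscle intermediate filament protein desmin, and Synm, the large intermediate filament protein synemin that pairs with it. Des was 662 CPM in male vehicle replicate 1 and 0.0370 to 27.9 CPM elsewhere, and Synm was 165 CPM against at most 8.11 CPM. Synm had no count in male AOM/DSS 15 weeks replicates 3 and 4. Casq2, the calcium-binding calsequestrin of the sarcoplasmic reticulum, was scarce throughout, at 17.7 CPM from 543 counts in male vehicle replicate 1 and at most 3.92 CPM, in male vehicle replicate 5, elsewhere. It had no count in male AOM/DSS 9 weeks replicate 4 and male AOM/DSS 15 weeks replicate 4, where the limit was 0.0921 and 0.207 CPM.

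Flna encodes filamin A, an actin crosslinker of most cell types, and like Mylk it kept a floor. It was 759 CPM in male vehicle replicate 1 and 14.0 to 67.8 CPM in the other 29 libraries, a 4.85-fold range. Its values at 15 weeks lay mostly below those at 9 weeks. Flna was 39.1, 20.4, 20.02, 19.7 and 18.1 CPM in females with vehicle and 45.0, 24.5, 41.7 and 56.2 CPM in male vehicle replicates 2 to 5. At 9 weeks it was 57.7, 65.1, 59.3, 49.2 and 20.6 CPM in females and 67.8, 40.5, 50.7, 46.1 and 46.4 CPM in males. At 15 weeks it was 14.0, 15.9, 26.2, 18.5 and 25.5 CPM in females and 30.3, 39.2, 19.5, 20.6 and 40.1 CPM in males. The 9-week libraries were high except female replicate 5, and no 15-week library exceeded 40.1 CPM.

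**Figure D2:**
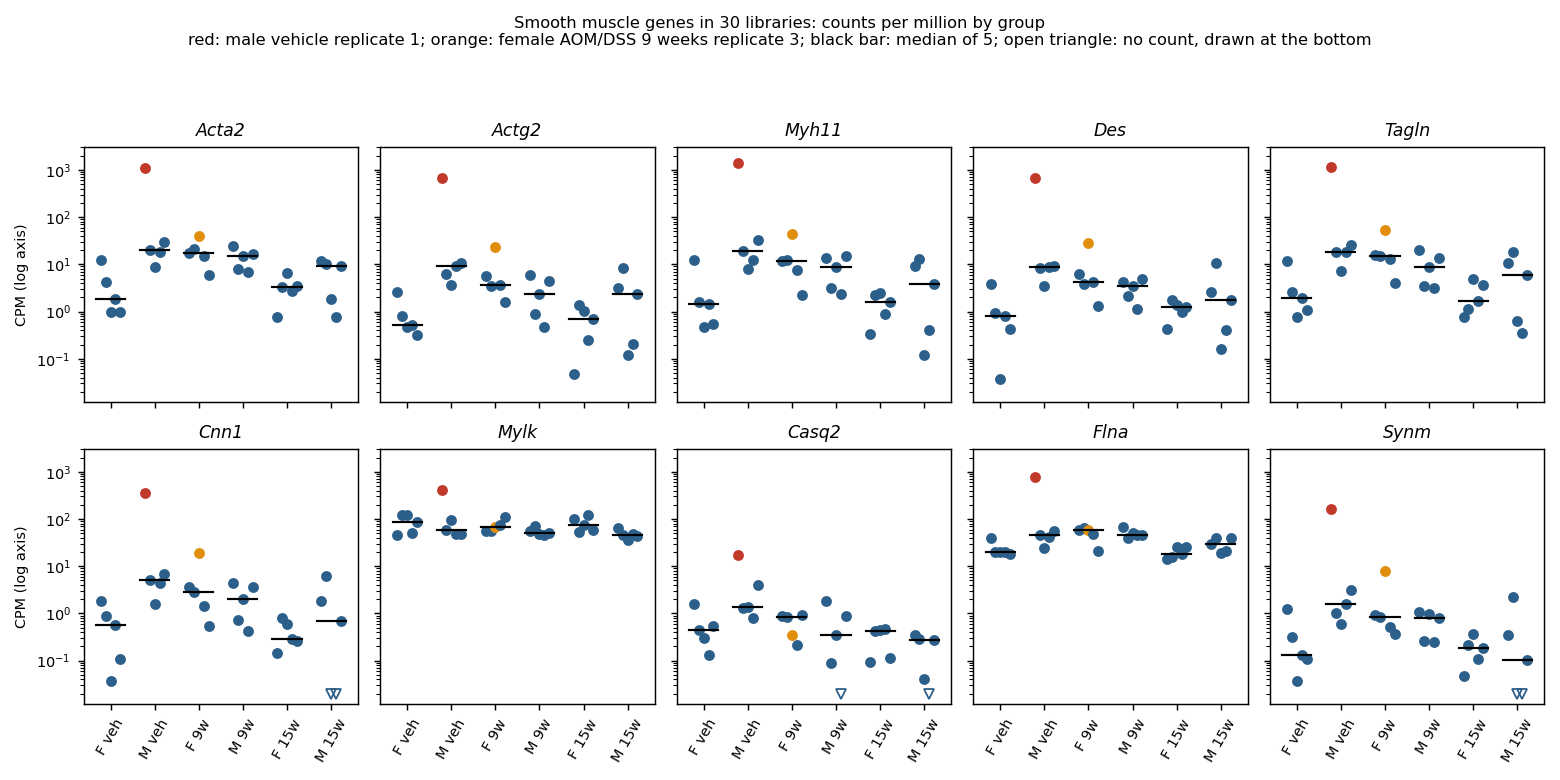
CPM of each gene on a log axis in the 6 groups (F female, M male, veh vehicle, 9w and 15w weeks of AOM/DSS), with a point per library and a bar at the median of 5. Male vehicle replicate 1 (red) lies far above the other libraries in each panel, for example at 1082 CPM of Acta2 against at most 39.8 CPM elsewhere, and Mylk and Flna never approach 0.

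Ordered by median, male vehicle was the highest group for 8 of the 10 genes. For Acta2 the medians were 20.2 CPM in male vehicle, 17.1 in females and 14.7 in males at 9 weeks, 9.28 in males and 3.31 in females at 15 weeks, and 1.86 in female vehicle. For Myh11 the order was the same, from 19.1 to 1.46 CPM. For Mylk female vehicle was highest, at 87.0 CPM, and males at 15 weeks lowest, at 46.2 CPM, and for Flna females at 9 weeks were highest and females at 15 weeks lowest. In all 50 pairs of neighbouring groups in these orders the ranges of the libraries overlapped, so no neighbours were separated.

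Across libraries the levels of the 10 genes ran in parallel, apart from Mylk. Over the 30 libraries, Pearson's r of log2 CPM with Myh11 lay between 0.95 and 0.98 for Acta2, Actg2, Des, Tagln, Cnn1 and Synm, was 0.89 for Flna and 0.77 for Casq2, and was 0.26 for Mylk. Spearman's rho was 0.93 to 0.97, 0.85, 0.63 and -0.15 in the same order. The permutation p for r, from 100000 permutations and adjusted over the 9 relations, was 1.1e-05 for all but Mylk, where it was 0.16. For rho it was 0.00022 or lower for the 8 genes and 0.41 for Mylk. The value 1e-05 before adjustment is the smallest these permutations can give. Without the libraries farthest from the median of Myh11, male vehicle replicate 1 and male AOM/DSS 15 weeks replicate 3, r was 0.92 to 0.97 for the first 6 genes, 0.84 for Flna, 0.61 for Casq2 and -0.49 for Mylk. Taken as deviations from the mean of their own group, r was 0.93 to 0.97, 0.83, 0.71 and 0.27. The relations of the 8 genes held within groups and without the farthest libraries. That of Mylk kept its sign within groups and turned negative without the farthest libraries. The deviations within groups still include male vehicle replicate 1. The libraries share depth and composition within each column, and no gene is an independent replicate of another.

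**Figure D3:**
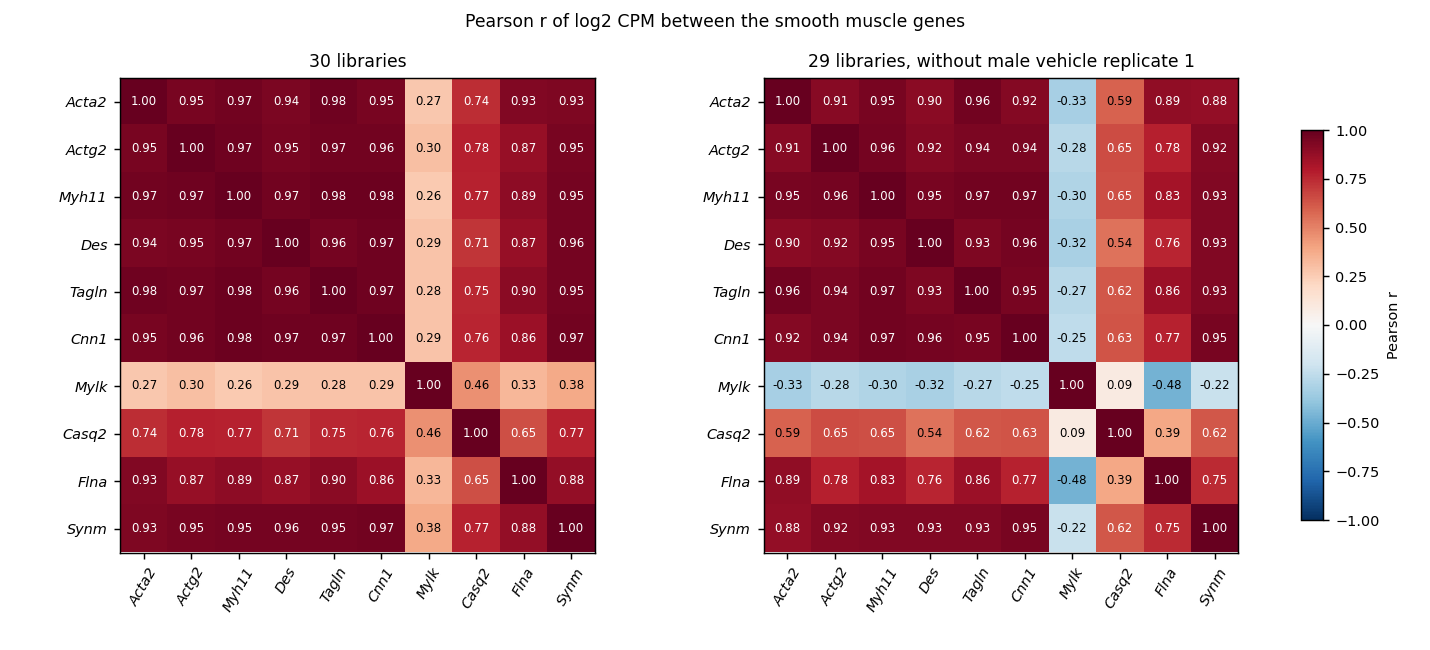
Pearson's r of log2 CPM for each pair of the 10 genes, over 30 libraries on the left and over 29 libraries, without male vehicle replicate 1, on the right. The r of Myh11 with Mylk goes from 0.26 to -0.30, while that with Cnn1 goes from 0.98 to 0.97.

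By mean r with the 10 genes over the 30 libraries, the 10 most alike of the tested genes outside them included Myl9, the regulatory light chain of smooth muscle myosin (mean r 0.89), Synpo2 (0.85), Lmod1 (0.85), 6330403A02Rik (0.85), Sparcl1 (0.84), Pcp4l1 (0.83), Fxyd1 (0.83), Tns1 (0.83) and Flnc (0.83). Without male vehicle replicate 1 their mean r was 0.71 to 0.79, and 6 of the 10 remained among the 10 most alike. Each was highest in male vehicle replicate 1, for example Myl9 at 644 CPM against at most 20.5 CPM elsewhere. That library was part of the ranking that picked these genes, so this is not a separate observation. Mylk had other neighbours. Without male vehicle replicate 1 the genes most like it, looked up after its values were seen, were App (r 0.93), Fzd5 (0.90) and Mfsd8 (0.90), whose r with Myh11 was -0.28, -0.32 and -0.39.

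The first comparison asked what AOM/DSS changed at 9 weeks, with the sexes averaged. A gene was called when edgeR's quasi-likelihood test gave a Benjamini-Hochberg adjusted p under 0.05 over all tested genes, a log2 fold change beyond 0.4 and a mean of at least 1 FPKM in 1 of the compared arms. None of the 10 was called, where 8.29% of tested genes were. At an unadjusted p under 0.05 there were 2, against 4720 of the 16261 genes, and DESeq2 called 0, giving no adjusted p for 8 of them because of outlying counts. Every log2 fold change was below 0, from -1.60 for Synm to -0.39 for Flna, with a median of -1.22 against -0.02 over all genes. For Acta2 it was -0.91 ± 0.68 (SE). This direction rested on male vehicle replicate 1. Without it, 8 of the 10 values were above 0, with Acta2 at 0.90 ± 0.48, and Mylk (-0.23 ± 0.20) and Casq2 (-0.74 ± 0.57) stayed below. Flna was then called higher at 9 weeks, at 0.68 ± 0.20 with an adjusted p of 0.022 by edgeR, 1 gene of 10 where 5.45% of genes were called higher. Mylk was called lower instead when female AOM/DSS 9 weeks replicate 5, male vehicle replicate 4 or male vehicle replicate 5 was left out. Of all genes, 675 of 16472, 515 of 16439 and 418 of 16438 were called lower in these fits.

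At 15 weeks against vehicle, 8 of the 10 genes were called lower, where 3.89% of tested genes were. On the log2 scale the change was -3.49 ± 0.91 for Myh11, -3.52 ± 1.04 for Synm, -3.11 ± 0.94 for Actg2, -3.10 ± 0.99 for Cnn1, -2.84 ± 0.83 for Tagln, -2.80 ± 0.89 for Des, -2.70 ± 0.73 for Acta2 and -1.43 ± 0.43 for Flna, with adjusted p between 0.012 and 0.032 by edgeR. Casq2, at -2.82 ± 0.68 with an adjusted p of 0.0081, was under the FPKM minimum, and Mylk, at -0.77 ± 0.31, had an adjusted p of 0.074. The individual libraries overlapped for all 10 genes. The FPKM minimum was applied to the mean of an arm, which male vehicle replicate 1 raised. The means that follow are in TPM, another scale, so they do not show whether the FPKM minimum was met. In TPM the vehicle mean with and without that library was 1.97 and 0.0673 for Synm and 12.9 and 0.552 for Cnn1. It was 18.9 and 0.721 for Des and 18.3 and 0.826 for Myh11. Among Acta2, Actg2, Tagln and Flna the lowest mean without that library was 1.59 TPM, for Actg2. Without male vehicle replicate 1 none was called, where 2.55% of genes were called lower, and 2 had an unadjusted p under 0.05, as did 29.6% of genes. Myh11 was then at -1.46 ± 0.66 with an adjusted p of 0.14, Acta2 at -0.90 ± 0.48 with 0.21 and Des at -0.68 ± 0.62 with 0.48. Every value remained below 0, between -0.24 and -2.10. Casq2 alone kept an adjusted p under 0.05, 0.028 at -2.10 ± 0.61, still below the FPKM minimum. The count was also 0 when female vehicle replicate 1 was left out, where 463 of 16439 genes were called lower. DESeq2 called only Mylk and gave no adjusted p for 8.

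The comparison of the 15-week with the 9-week AOM/DSS libraries takes no level from the vehicle libraries, which enter through the shared estimate of spread and the filter on low counts. Every value was below 0, from -2.03 for Cnn1 to -0.01 for Mylk, and none was called, where 2.32% of genes were. At an unadjusted p under 0.05 there were 5, where 23.7% of genes were, and DESeq2 called 0. A gene to which DESeq2 gives no adjusted p cannot be called. Its flags for outlying counts come from the fit shared by all comparisons, so this 0 is not a separate negative result. With male vehicle replicate 1 left out, which changed the spread and raised the genes tested to 16377, Acta2 (-1.80 ± 0.47, adjusted p of 0.026 by edgeR) and Flna (-1.04 ± 0.20, 0.0068) were called lower at 15 weeks, 2 of 10 where 2.52% of genes were. The same genes were called when only the 9- and 15-week libraries were fitted. Myh11, at -2.02 ± 0.65, then had an adjusted p of 0.055 and Tagln, at -1.75 ± 0.58, of 0.062.

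**Figure D4:**
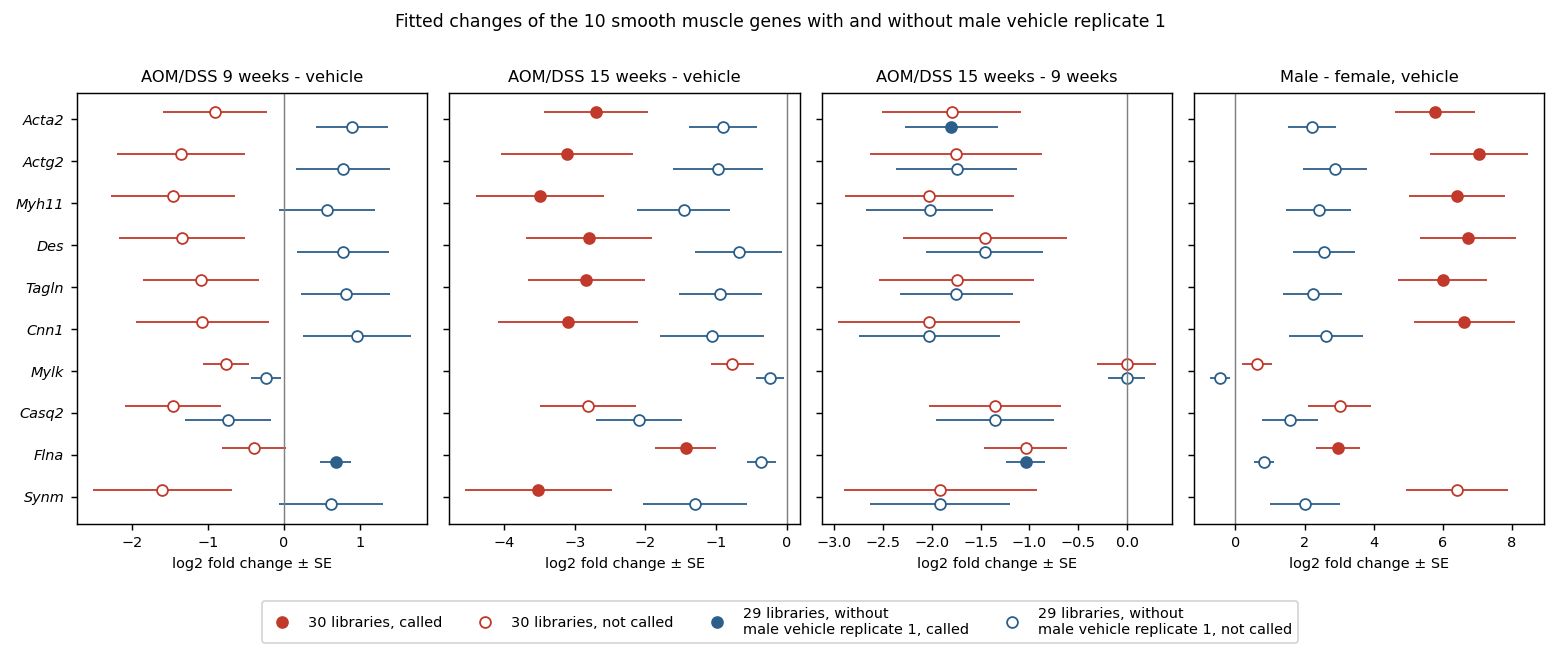
Fitted log2 fold change with its SE (bars) for the 10 genes in 4 comparisons, in red with all 30 libraries and in blue without male vehicle replicate 1, with filled points for called genes. At 9 weeks against vehicle Acta2 goes from -0.91 to 0.90, at 15 weeks against vehicle 8 filled red points become open blue ones, and among vehicle mice all 7 filled points are red.

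Among vehicle mice, 7 of the 10 genes were called higher in males, where 0.141% of tested genes were, 23 in all. Actg2 differed by 7.06 ± 1.42 on the log2 scale, Des by 6.73 ± 1.39, Cnn1 by 6.61 ± 1.46, Myh11 by 6.40 ± 1.39, Tagln by 5.99 ± 1.30, Acta2 by 5.78 ± 1.15 and Flna by 2.98 ± 0.64, with adjusted p between 0.038 and 0.047 by edgeR. Synm, at 6.40 ± 1.47, had an adjusted p of 0.058, Casq2, at 3.02 ± 0.91, of 0.079 and Mylk, at 0.63 ± 0.43, of 0.46. When male vehicle replicate 1 was left out none was called, where 0.0427% of genes were called higher. Actg2 was then 2.87 ± 0.93 with an adjusted p of 0.42, Acta2 2.22 ± 0.70 with 0.42 and Flna 0.83 ± 0.29 with 0.42. In that fit 9 of the 10 values were above 0 and 7 had an unadjusted p under 0.05, as did 10.1% of genes, while Mylk turned to -0.45 ± 0.29. The count was also 0 when any of female vehicle replicates 2 to 5 was left out. In each of those fits only 6 of all tested genes were called higher in males. DESeq2 called only Casq2 and gave no adjusted p for 8.

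In treated mice no difference between the sexes passed the test. At 9 weeks 0 of 10 genes were called, where 0.0492% of genes were, with values from -1.69 for Synm to -0.0034 for Flna. At 15 weeks 0 were called, where 0.184% were, and 8 of the values were above 0, from -0.79 for Mylk to 2.14 for Cnn1. At an unadjusted p under 0.05 there was 0 at either time, where 3.87 and 12.4% of genes were, and DESeq2 called 0. Genes with outlying counts, such as Flna at 9 weeks, had no adjusted p from DESeq2 and could not be called by it. The difference between the sexes in the response to AOM/DSS was also tested. None of the 16261 genes (0%) passed at either time by edgeR, although 1205 (7.41%) and 1245 (7.66%) had an unadjusted p under 0.05, and DESeq2 called 1 and 4. Of the 10 genes, 9 and 10 had an unadjusted p under 0.05, all with a lower response in males, at adjusted p of 0.31 to 0.72 and 0.44 to 0.61. The counts without male vehicle replicate 1 were 8 at 9 weeks, led by Actg2 at -4.30 ± 1.25, and 0 at 15 weeks, where 3.69 and 4.95% of genes were, with adjusted p of 0.99995 throughout.

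Further genes of the contractile machinery were described from 4 lists, with 3 genes of each chosen for their level and others for their test. Of 16 contractile filament genes and regulators, 10 were highest in male vehicle replicate 1. The share of all tested genes highest in that library is not given here. This count and the later ones of its kind therefore have no background. Myl9 was 644 CPM there against a median of 3.71 CPM, but Myl6 (884 against 749 CPM), Tpm1 (875 against 329 CPM) and Tagln2 (168.9 against 351 CPM), forms used in most cells, were less unequal. Tpm1 there was above the 386 CPM reached elsewhere, Myl6 was within the range of the others, and Tagln2 was below their lowest value of 213 CPM. The background for calls in these lists and in the marker lists below is the same share of tested genes as above. Further shares were 5.51% called higher and 2.78% lower at 9 weeks, 3.46% higher at 15 weeks and 1.91% lower between those times. Among vehicle mice 3 of the 16, Myl9, Tpm2 and Cald1, were called higher in males, with Myl9 at 5.67 ± 1.16 and an adjusted p of 0.038 by edgeR, and none without male vehicle replicate 1. At 15 weeks against vehicle 3 were called lower (Myl9, Cald1 and Ppp1r12b) and 1 higher. The higher one was Cnn2, a calponin of nonmuscle cells, at 0.56 ± 0.14 with an adjusted p of 0.0100, and it was also called higher at 9 weeks, at 0.86 ± 0.14 with 8.9e-05. With male vehicle replicate 1 left out, Cnn2 stayed called at both times, and of the 3 lower genes only Ppp1r12b did at 15 weeks.

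Of 15 genes of dense bodies and membrane anchors, 13 were highest in male vehicle replicate 1, among them Csrp1 (627 CPM against a median of 47.9), Synpo2 (111 against 1.16) and Pgm5 (63.2 against 0.480). Vcl (164 against 113) and Actn1 (121.3 against 96.2), which most cells use, were closer. Of the 14 tested, 4 were called lower at 15 weeks against vehicle, led by Pdlim3 at -2.49 ± 0.67 with an adjusted p of 0.014 by edgeR. Only Dmd was called without male vehicle replicate 1. Pdlim7 was called higher at 9 weeks, at 0.91 ± 0.29 with an adjusted p of 0.030, and stayed so without that library, at 1.37 ± 0.21. Synpo2 was the only gene of the list called between the sexes in vehicle mice, at 5.36 ± 1.11 with 0.038, and was not called without that library.

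Of 15 genes of calcium handling and excitation, 9 were highest in male vehicle replicate 1, for example Jph2, a junctophilin, at 33.3 CPM against a median of 0.425 CPM, while Atp2a2 (316 against 309), Pde5a (119 against 94.6) and Rock1 (75.4 against 71.6) were near the others. Of the 11 tested, 1 was called lower at 9 weeks and 2 at 15 weeks against vehicle, and 1 each without male vehicle replicate 1. Itpr1, an inositol trisphosphate receptor, was called lower at 9 weeks (-0.64 ± 0.15, adjusted p of 0.0041 by edgeR) and at 15 weeks (-0.94 ± 0.15, 0.00029), with and without male vehicle replicate 1. Of 10 transcription factors of smooth muscle, 5 were highest in that library, among them Srf at 65.5 CPM, against at most 61.8 CPM elsewhere. Mef2d (163.2 against a median of 120) and Gata6 (36.9 against 35.4) were within the range of the others. None of the 9 tested was called in any of the 8 comparisons.

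Markers of other cells of the gut wall were listed as well. All 7 fibroblast markers, all 5 pericyte markers, all 4 endothelial and all 4 enteric glial markers were highest in male vehicle replicate 1, again without a background share. For example Col3a1 was 463 CPM against at most 168.6 CPM, Dcn 203 against at most 93.2, Rgs5 59.8 against at most 16.7, and Pecam1 28.4 against at most 21.5. Of the enteric neuron markers 4 of 6 were highest there, though all were at or below 7.45 CPM. Of the markers of interstitial cells of Cajal, Ano1 was highest, at 540 CPM against at most 306, and Etv1 as well, whereas Kit was 27.3 CPM, near the lowest of the others. Ano1 and Kit are not restricted to these cells. None of the 4 mesothelial markers was highest there, and Lrrn4 and Wt1 had no count. Of the 7 skeletal muscle markers 4 were highest there. Ckm was 16.4 CPM against at most 0.190 CPM, Tnnt3 1.63 against at most 0.393 and Myh2 0.488 against at most 0.112, and Myh1 was 0.0976 CPM and had no count elsewhere. Myh4 had no count in any library, and Acta1 and Mylpf were within the range of the others. None of 6 epithelial markers was highest there, and Krt20 was 578 CPM, near the lowest of the others (568 CPM).

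**Figure D5:**
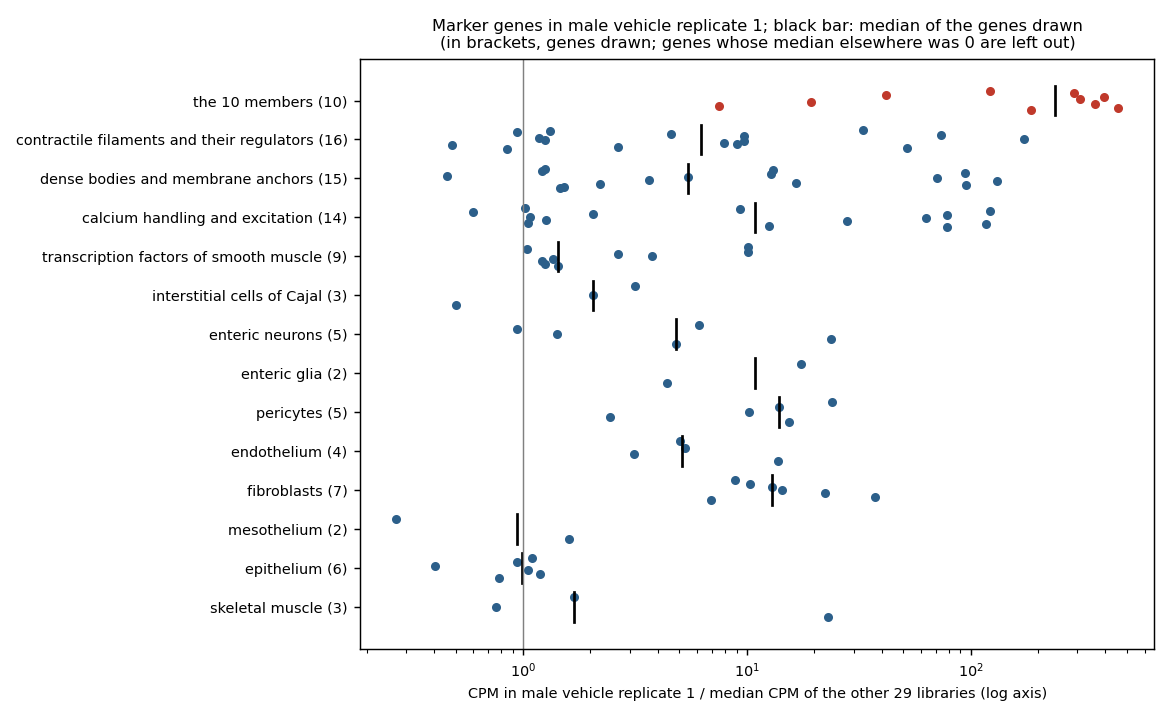
For each gene of each list, CPM in male vehicle replicate 1 divided by the median CPM of the other 29 libraries, on a log axis, with a bar at the median of the genes drawn. The 10 smooth muscle genes have a median of 237, fibroblast markers of 12.9 and epithelial markers near 1.

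Mesenchymal markers were measured in the same comparisons. At 9 weeks against vehicle with all 30 libraries, where all 10 smooth muscle genes were below 0, Col3a1 (0.24 ± 0.53) and Dcn (0.40 ± 0.59) were above 0, Dpt (-0.66 ± 0.55) was below, and none of the 3 was called. The summed CPM of the 7 fibroblast markers was 17.4 to 416 in vehicle libraries without male vehicle replicate 1 (median 84.5), 31.4 to 296 at 9 weeks (median 167.1) and 8.54 to 119 at 15 weeks (median 44.9), and in male vehicle replicate 1 it was 1076. Among vehicle mice it was 17.4 to 168.2 in females and 84.5 to 416 in male replicates 2 to 5. At 15 weeks against vehicle 4 of the 7 were called lower (Col3a1, Dpt, Dcn and Lum), and 1, Lum, without male vehicle replicate 1. Of all tested genes 3.89 and 2.55% were called lower in these fits. Between 9 and 15 weeks 2 were called lower, Col3a1 at -1.94 ± 0.55 (adjusted p of 0.042 by edgeR) and Dcn at -2.22 ± 0.62 (0.040). Without that library 5 were called lower. The shares of all tested genes called lower were 1.91% with it and 2.52% without it. Pecam1 of the endothelium and Rgs5 of pericytes were also called lower between 9 and 15 weeks, with and without male vehicle replicate 1. The summed CPM of the 5 pericyte markers was 6.99 to 36.2 at 9 weeks and 7.61 to 19.1 at 15 weeks, and that of the 4 endothelial markers was 10.6 to 40.3 and 4.57 to 19.6. No fibroblast, pericyte or endothelial marker was called between the sexes in vehicle mice. The part of these cells in the values of the smooth muscle genes was not tested.

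The median summed CPM in vehicle libraries without male vehicle replicate 1, at 9 weeks and at 15 weeks was 8.53, 15.2 and 7.04 for enteric neuron markers, 0.562, 1.41 and 1.18 for mesothelial markers and 251, 252 and 145.5 for the markers of interstitial cells of Cajal. Epithelial markers summed to 8428 to 10995 CPM in vehicle libraries and 8930 to 13943 CPM at 15 weeks, and Krt20, a keratin of mature surface cells, was the only epithelial marker called, higher at 9 weeks (0.59 ± 0.14, adjusted p of 0.0048 by edgeR) and at 15 weeks (0.71 ± 0.14, 0.0023). Snap25 of the neuronal list was called lower at 15 weeks against vehicle, at -0.54 ± 0.18 with an adjusted p of 0.040, and not without male vehicle replicate 1. Kit was called lower at 9 weeks only without that library. Of the glial, mesothelial and skeletal muscle lists, of which 1, 1 and 2 genes passed the filter, none was called in any of the 8 comparisons.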

How the data were processed

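RNA was sequenced by the authors from poly(A)-selected, strand-specific libraries as paired reads of 51 bases, trimmed with Trim Galore, and aligned to GRCm38 with STAR. The deposited counts are raw featureCounts counts per gene without normalization, and the TPM and FPKM values were made by the authors with StringTie. The versions of these tools are not given in the sources used here, except for bcl2fastq 2.20.0.422 in the submitters' processing notes. Groups came from the labels, with 5 mice per group, and no sample was left out. The 60 pairs of libraries within groups held no copies.

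Counts were tested with edgeR 4.0.16 in R 4.3.3 (filterByExpr, TMM, glmQLFit and glmQLFTest) on all 30 libraries with 1 coefficient for each of the 6 groups, in 8 comparisons, with Benjamini-Hochberg adjustment over 16261 genes. Correlations used log2 CPM with a prior count of 2. Fits were tested on simulated data. DESeq2 1.42.0, RLE scaling, no filter, the compared libraries alone, a replicate block, the adjusted p alone, robust estimation and leaving out each library were the alternatives. Leaving out the 2 libraries highest in the 10 genes was chosen after seeing the data.

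Named were all 10 genes, the 3 genes of each list with the highest mean TPM and, for the 4 muscle lists, the called gene with the lowest adjusted p in each comparison, and the 10 tested genes with the highest mean r. One of these 10 is not reported here. Other called genes of a list, and single examples from the lists, were named after their values were seen. The genes and lists were chosen with earlier results of these data known. The lists were contractile filaments, dense bodies, calcium handling, transcription factors, interstitial cells of Cajal, enteric neurons, enteric glia, pericytes, endothelium, fibroblasts, mesothelium, epithelium and skeletal muscle. TPM and FPKM depend on the mitochondrial share of a library. SE and p-values of the fits measure the spread between mice, which includes the spread between dissections. The SE is the size of the log2 fold change divided by the square root of edgeR's F statistic. The permutation p-values of r and rho came from shuffling all 30 libraries without regard to group.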

Additional observations from a re-analysis of the deposited data

Results flagged for a closer look

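In each gene and group, the highest or lowest of the 5 libraries was compared with its nearest neighbour by Dixon's criterion on log2 CPM, and 11 of 60 groups passed the 95% limit of 0.71. Chance alone passes about 1 in 20. Of the 11, 8 were male vehicle replicate 1, far above the other male vehicle libraries, with log2 CPM of 10.08 for Acta2, 9.37 for Actg2, 10.45 for Myh11, 9.37 for Des, 10.14 for Tagln, 8.46 for Cnn1, 9.57 for Flna and 7.37 for Synm. These 8 come from 1 library and are not separate observations. Synm was also far above its group in female AOM/DSS 9 weeks replicate 3, at 3.03. Flna was above its group in female vehicle replicate 1, at 5.29, and below its group in female AOM/DSS 9 weeks replicate 5, at 4.37. The cause was not tested.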

How the results depend on the processing

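With male vehicle replicate 1 and female AOM/DSS 9 weeks replicate 3 both left out, the genes called were 1 at 9 weeks against vehicle (Flna), 0 at 15 weeks against vehicle, 2 between 9 and 15 weeks (Acta2 and Flna) and 0 between the sexes in vehicle mice, against 0, 8, 0 and 7. Of all 16347 genes tested in that fit, 873 were called higher at 9 weeks and 381 lower at 15 weeks. Between the times 352 were called lower, and 6 were called higher in vehicle males. At 15 weeks against vehicle DESeq2 called 1 and edgeR on the compared libraries called 2 (Myh11 and Acta2). Over all tested genes these fits called 714 of 16261 and 408 of 15655 lower. Between 9 and 15 weeks the compared libraries alone gave 2, where 346 of 15748 genes were called lower. Between the sexes in vehicle mice DESeq2 called 1, and the compared libraries alone and robust estimation gave 0 each. Over all genes these fits called 283 of 16261, 6 of 14985 and 7 of 16261 higher in males. Leaving out each library in turn gave 0 to 1 genes at 9 weeks, 0 to 9 at 15 weeks, 0 to 2 between the times and 0 to 9 between the sexes in vehicle mice. These fits tested 16377 to 16482 genes. Of these, 1152 to 1684 were called in either direction at 9 weeks and 417 to 791 lower at 15 weeks. Between the times 89 to 633 were called lower, and 6 to 611 were called higher in vehicle males. The other 4 counts were 0 in every fit. The cause of the other losses was not tested, but fits on fewer libraries rest on fewer samples.

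The replicate numbers did not pair the libraries. Deviations of the 75 same-numbered pairs correlated between -0.58 and 0.47, 12 of them over 0.1, and 4 of 30 libraries correlated best with their own number. With the replicate number as a block, 0 of the 10 genes were called at 15 weeks against vehicle and 0 between the sexes in vehicle mice. Of all 16261 genes, that fit called 458 lower at 15 weeks and 10 higher in vehicle males. The 9-week values of Acta2, Tagln and Flna turned to 0.19, 0.0268 and 0.0263 with the block.

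Signs also turned elsewhere. Without the 2 highest libraries the 9-week values were 0.69 for Acta2, 0.24 for Actg2, 0.13 for Myh11, 0.20 for Des, 0.44 for Tagln, 0.28 for Cnn1 and 0.65 for Flna, the sex difference of Mylk in vehicle mice was -0.45, and those at 9 weeks were 0.0318 for Myh11, 0.0858 for Cnn1, 0.0622 for Flna and 0.00849 for Synm. Flna between the sexes at 9 weeks lay near 0 throughout, at 0.00477 with DESeq2, 0.00388 with RLE, 0.000965 with no filter and 0.000660 with the compared libraries, as did Mylk between the times, at 0.000928 with no filter. Over the fits that left out 1 library, the 9-week values ran from -1.12 to 0.90 for Acta2, -1.90 to 0.78 for Actg2, -1.91 to 0.57 for Myh11, -1.93 to 0.78 for Des, -1.46 to 0.81 for Tagln, -1.76 to 0.97 for Cnn1, -0.53 to 0.68 for Flna and -2.45 to 0.62 for Synm, each positive only without male vehicle replicate 1. Mylk ran from -0.10 to 0.12 between the times, from -0.45 to 0.84 between the sexes in vehicle mice and from -1.27 to 0.0135 for the sex difference in the response at 9 weeks. Between the sexes at 9 weeks, Myh11 ran from -1.15 to 0.0291, Cnn1 from -1.69 to 0.0795, Casq2 from -0.96 to 0.30, Flna from -0.19 to 0.11 and Synm from -1.95 to 0.00593, and at 15 weeks Synm ran from -0.75 to 1.96. Casq2, Cnn1 and Synm had no count in 2 libraries each, where a count of 0 allows levels up to 0.0921 to 0.207 CPM.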
